A study of Mus musculus with 2 samples.

Results

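The miRNAs described here are 6 mouse miRNAs that can be made without Drosha, of the 1881 mouse miRNAs on the array. They are mmu-miR-320-3p, mmu-miR-484, mmu-miR-877-5p, mmu-miR-877-3p, mmu-miR-1224-5p and mmu-miR-702-3p, chosen by name from the array's own annotation, with every probe that carries the name. Exosomes are small membrane vesicles shed by cells, and here they were isolated from the medium of bone marrow-derived mesenchymal stem cells (BMSCs) of C57BL/6 mice. The BMSCs, cultured multipotent stromal cells, were grown either in normoxia or under hypoxia (0.2% oxygen), in both cases with serum depleted of exosomes, and the medium was collected after 72 h. Cy3-labelled exosomal RNA was profiled on Agilent arrays of mouse miRNAs, with 1 array per condition and no biological replicate. Neither the passage, age and sex of the BMSCs nor the number of pooled cultures was given in the sources used here, and the array holds no mRNA markers with which to check the cell type.

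Most animal miRNAs are cut from a long primary transcript by the nuclear enzyme Drosha with its partner DGCR8, and the hairpin that is released is then cut by Dicer in the cytoplasm. Some miRNAs bypass the Drosha step. The precursors of miR-320 and miR-484 are described as hairpins that begin at the 5′ end of a capped transcript and go straight to export and Dicer, whereas mirtrons such as miR-877 and miR-1224 are short introns whose ends are made by the splicing machinery. miR-702 is likewise described as coming from an intron. The array measures the mature miRNA and does not show by which route a molecule was made.

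The mature sequences are shown because their base content differs between arms. They come from RefSeq on the GRCm38.p6 build, which holds 5 of the 6 members, and the seed (bases 2 to 8, the part that pairs with targets) is in capitals. The last pair of lines gives opposite arms of the same precursors, which the array also carries.
mmu-miR-484: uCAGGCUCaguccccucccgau
mmu-miR-877-5p: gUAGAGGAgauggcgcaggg
mmu-miR-877-3p: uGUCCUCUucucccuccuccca
mmu-miR-1224-5p: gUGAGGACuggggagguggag
mmu-miR-702-3p: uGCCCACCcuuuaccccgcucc
mmu-miR-1224-3p: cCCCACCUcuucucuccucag
mmu-miR-702-5p: gUGAGUGGggugguuggcaug
No seed was shared among these 5 members, and none was shared with another array miRNA that has a RefSeq sequence. The 5p arms were rich in G: 13 of the 21 bases of miR-1224-5p (61.9%), 55.0% of the bases of miR-877-5p and 57.1% of those of miR-702-5p. The 3p arms held little G, from 4.5% in miR-877-3p to 9.1% in miR-702-3p.

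The precursors of both mirtrons are printed next because they show the intron ends, with the first and last 2 bases in capitals. Introns begin with GU and end with AG.
Mir1224: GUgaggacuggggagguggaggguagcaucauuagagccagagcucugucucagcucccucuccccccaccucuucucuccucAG
Mir877: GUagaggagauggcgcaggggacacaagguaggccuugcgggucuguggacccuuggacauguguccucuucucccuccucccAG
Both hairpins were 85 bases long, with Mir1224 at chr16:20604452-20604536 on the plus strand and Mir877 at chr17:35960730-35960814 on the minus strand of GRCm38.p6. Only 30 of the 1005 mouse hairpins in the RefSeq table (2.99%) both began with GU and ended with AG. In the gene table of the same build, Mir1224 lay within the span of Vwa5b2 and Mir877 within that of Abcf1. Mir702 lay within Plod3, but its RefSeq hairpin of 109 bases began with CG and ended with CC. The 5p arm of Mir702 started 9 bases in and itself began with GU. Mir484 (chr16:14159626-14159692, plus strand) lay within no other gene of the table, between Nde1 and Marf1, and its mature miRNA started 4 bases from the hairpin's 5′ end. Mir320 lay within no other gene either, and its nearest protein-coding gene was Polr3d.

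Detection of a probe required that over 50% of its usable spots be well above background by the scanner software's flag, and detection of a miRNA required 1 such probe. By that rule miR-320-3p and miR-1224-5p were detected on both arrays, 2 of the 6 members, and the other 4 members on neither array. For comparison, 12.0% of all 1881 miRNAs were detected in normoxia, 10.6% in hypoxia and 9.57% on both. Of the miRNAs that were measured on both arrays, miR-320-3p was 4.90-fold higher in hypoxia (log2 difference 2.29 ± 0.045, SE over spots) and miR-1224-5p was 1.78-fold higher (0.83 ± 0.033). The threshold of 2-fold that the study's text uses was thus passed by 1 member, miR-320-3p, and none was 2-fold lower. Of all 180 miRNAs detected on both arrays, 18.3% were higher in hypoxia by 2-fold or more, and 10.0% were lower by as much. That balance depended on the scaling, from 33 miRNAs higher and 18 lower to 20 and 36 without normalization, 25 and 30 when scaled by the hybridization spike-ins, and 58 and 10 when scaled by the 75th percentile over all probes. The median over both measured members was 1.56, and that over all 180 miRNAs was 0.17. With 1 array per condition no test could be made, and every SD or SE is over replicate spots inside an array. It does not cover differences between cultures, exosome isolations or labellings.

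**Figure D1:**
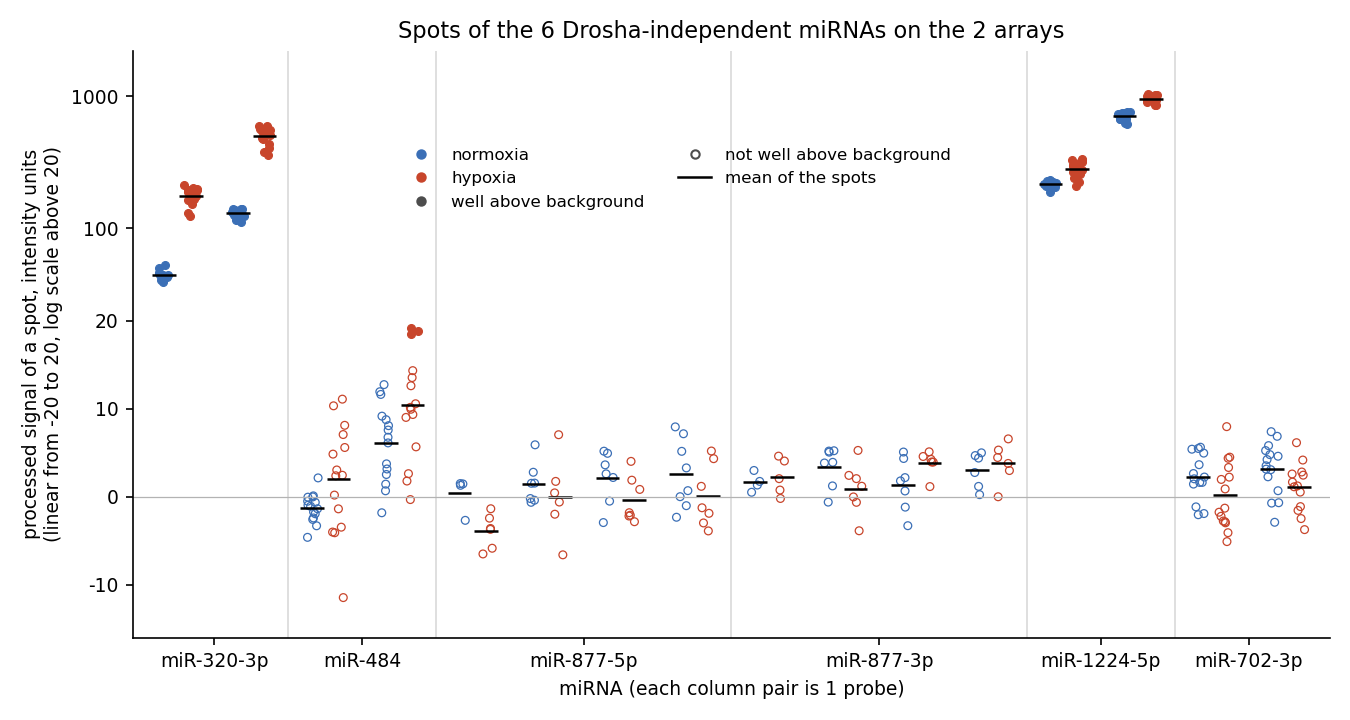
Processed signal of every usable spot of the 6 members, in intensity units, on a scale that is linear near 0 and logarithmic above 20. Each column pair is 1 probe with normoxia in blue and hypoxia in red, filled points are spots well above background, and black bars are means. The spots of miR-320-3p and miR-1224-5p are all well above background, and of the other members 3 spots of miR-484 in hypoxia are.

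The capped-hairpin miRNAs came out differently from each other. miR-320-3p, a miRNA that is widely expressed in mammalian tissues, was measured by 2 probes. On the dimmer probe (A_54_P2633) the normoxia spots had a processed signal of 38.9 at the lowest, 44.0 at the median and 52.5 at the highest, with a mean of 44.5 ± 3.57 (SD, n = 13 spots). The hypoxia spots of that probe ran from 124 through a median of 176 to 212, with a mean of 174.9 ± 26.0 (SD, n = 14 spots). The spots of the arrays did not overlap on this probe. On the brighter probe (A_54_P2634) the normoxia spots ran from 112 to 140.2, with a mean of 129.9 ± 8.75 (SD, n = 14 spots). Its hypoxia spots ran from 357 to 589, with a mean of 499 ± 76.6 (SD, n = 15 spots). Here too every hypoxia spot was brighter than every normoxia spot, and all usable spots of both probes were well above background. Such separation of spots was not counted over the other probes of the arrays, so it is not shown to be particular to these members. The SD over spots was larger on the hypoxia array for both probes. As deposited, without normalization between arrays, the ratio of hypoxia to normoxia was 3.93 on the dimmer probe and 3.84 on the brighter one. Quantile normalization, the kind that the study names, was applied here to the probe means. The log2 difference was then 2.37 ± 0.066 on the dimmer probe and 2.22 ± 0.063 on the brighter one (SE over spots). The probes thus differed by less from each other than either did from 0. Of the 180 miRNAs measured on both arrays, 5 had a larger log2 difference than miR-320-3p and 174 a smaller one. The signal was not measured per exosome. More copies per exosome, a larger share of exosomes that carry the miRNA and other changes in the labelled RNA cannot be told apart in it.

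miR-484, which sits beside Nde1 and Marf1, gave signal near the background on both of its probes. On the dimmer probe (A_54_P1683) the spots ran from -4.60 to 2.15 in normoxia and from -11.4 to 11.1 in hypoxia, and the ranges overlapped. On the brighter probe (A_54_P1684) the normoxia spots ran from -1.81 through a median of 6.76 to 12.7, and the hypoxia spots from -0.31 through a median of 10.2 to 19.1. The means were 6.17 ± 4.41 and 10.4 ± 6.08 (SD, n = 15 spots each), so the ranges overlapped again. None of the 15 normoxia spots and 3 of the 15 hypoxia spots of this probe were well above background. Among the negative control spots, which carry no mouse miRNA probe, 0 of 964 in normoxia and 4 of 979 in hypoxia were well above background. The dimmest detected miRNA probe of the whole array had a signal of 14.5 in normoxia and 13.5 in hypoxia, above both means of miR-484. No fold is therefore given for miR-484.

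Among the intron-derived members, miR-1224-5p had a clear signal. miR-1224 is among the mirtrons that mammals share. On its dimmer probe (A_54_P4402) the normoxia spots ran from 189 through a median of 219 to 230.2, and the hypoxia spots from 208 through a median of 277 to 331. These ranges overlapped, and the means were 217 ± 10.6 (SD, n = 14 spots) and 280.4 ± 38.8 (SD, n = 15 spots). On its brighter probe (A_54_P4403) the usable spots ran from 618 to 754 in normoxia and from 855 to 1041 in hypoxia. The spots left out for an outlier flag read 493 in normoxia and 685 in hypoxia, and the latter lies inside the normoxia range. The means of that probe were 700.5 ± 45.0 and 956 ± 62.6 (SD, n = 14 spots each). Without normalization between arrays the ratio was 1.29 and 1.36 on the dimmer and the brighter probe. After quantile normalization the log2 difference was 0.73 ± 0.055 and 0.93 ± 0.035 (SE over spots), below the 2-fold threshold on both. Of the 180 measured miRNAs, 36 had a larger log2 difference than miR-1224-5p and 143 a smaller one. The log2 difference of miR-320-3p exceeded that of miR-1224-5p by 1.46 ± 0.056 (SE over spots), a difference inside this pair of arrays that has no replicate check. It was 1.29 on the brightest probes alone and 0.84 after normexp background correction with an offset of 50.

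The other intron-derived members were at the background on both arrays. miR-877-5p and miR-877-3p, the arms of the intron of Abcf1, had 4 probes each, and miR-702-3p had 2. The probe means of miR-877-5p lay between 0.40 and 2.62 in normoxia and between -3.89 and 0.11 in hypoxia, over 26 usable spots per array. Those of miR-877-3p lay between 1.38 and 3.41 in normoxia and between 0.93 and 3.85 in hypoxia, over 24 usable spots per array. miR-702-3p had probe means of 2.27 and 3.16 in normoxia and of 0.16 and 1.07 in hypoxia. No spot of these 3 miRNAs was well above background on either array. The negative control spots averaged 4.28 ± 3.10 in normoxia (SD, n = 964 spots) and 4.28 ± 3.52 in hypoxia (SD, n = 979 spots), so the probes of these miRNAs were no brighter than spots without a miRNA probe. A level in exosomes below what these arrays detect cannot be told from none.

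The opposite arms were read to see whether a precursor left both of its arms in the exosomes. miR-320-5p, miR-1224-3p and miR-702-5p, with 7 probes in all, had probe means between -2.09 and 0.24 in normoxia and between -5.33 and -0.37 in hypoxia. None of their 90 usable spots in normoxia and 88 in hypoxia was well above background. The detected members thus came from precursors of which the arrays showed 1 arm each. miR-1224-5p was the arm rich in G, but the other G-rich 5p arms, miR-877-5p and miR-702-5p, were not detected. Over the 1608 array miRNAs with a RefSeq sequence, 117 had at least 50% G, and 44 of these (37.6%) were detected on at least 1 array. Of those under 50% G, 11.5% were detected. Whether base content bears on detection was not tested.

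**Figure D2:**
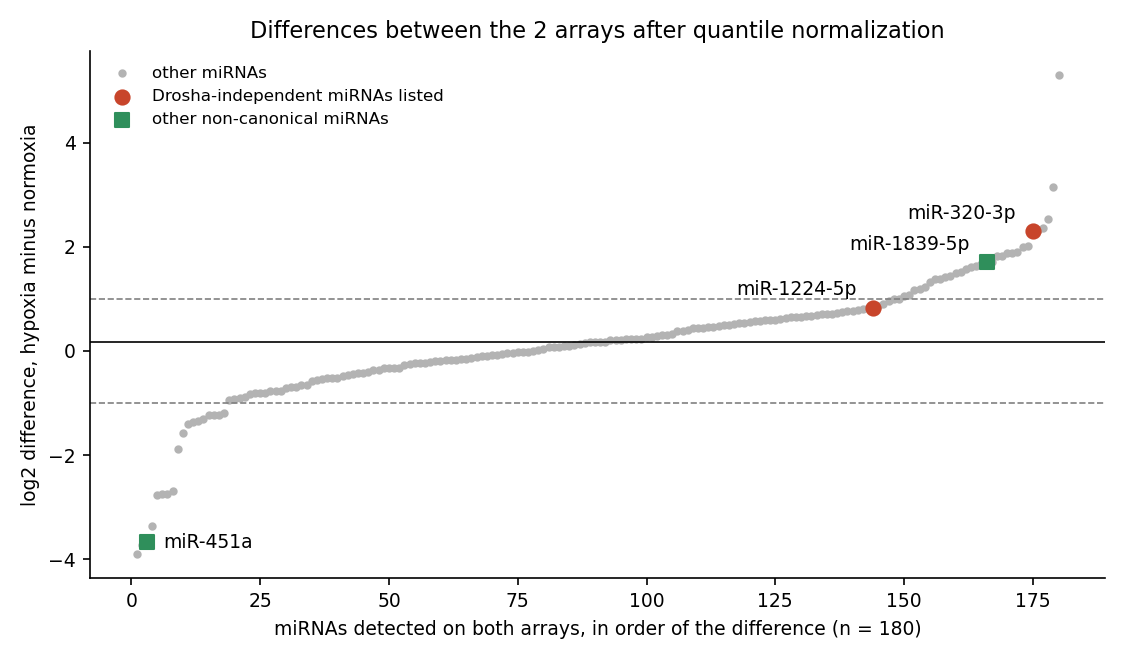
Log2 difference, hypoxia minus normoxia, of the 180 miRNAs detected on both arrays, in rising order after quantile normalization, with the median (solid line) and 2-fold in each direction (dashed lines). miR-320-3p (2.29) lies near the upper end, with 5 miRNAs above it, and miR-1224-5p (0.83) lies below the 2-fold line.

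The miRNAs nearest to miR-320-3p in log2 difference were miR-185-5p (2.32, at a distance of 0.028), miR-378b (2.36, at 0.068) and miR-503-5p (2.54, at 0.25). Each of these 3 rested on 1 probe detected on both arrays. Nearest to miR-1224-5p were miR-1929-5p (0.82, at a distance of 0.014), miR-192-5p (0.80, at 0.029) and miR-193b-3p (0.87, at 0.036). Likeness here is the distance between log2 differences over 2 arrays and carries no more than that.

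The quality measures of the arrays differed with the condition, and their part in these differences was not tested. Replicate spots varied more in hypoxia, with a median coefficient of variation of 15.8% against 9.68% in normoxia, and the software marked the hypoxia array for evaluation. It put both this variation and the labelling spike-in signal out of range on the hypoxia array, and both in range on the normoxia array. Without normalization the labelling spike-ins were lower on the hypoxia array, by log2 differences of -0.44 and -0.51, and the hybridization spike-ins by -0.09 and -0.16, whereas both probes of miR-320-3p and of miR-1224-5p were higher there. Both arrays lay on the same slide, so position on the slide and condition cannot be told apart. The size of the differences moved with the scaling. Over quantile normalization, 4 other scalings and no normalization, the log2 difference ran from 1.96 to 2.89 for miR-320-3p (3.89-fold to 7.39-fold) and from 0.41 to 1.34 for miR-1224-5p (1.33-fold to 2.53-fold). After quantile normalization it lay 2.13 above the median of all miRNAs for miR-320-3p and 0.66 above it for miR-1224-5p. The other scalings shift every miRNA alike and so cannot change this distance among themselves. miR-1224-5p passed 2-fold in 1 setting, in which arrays were scaled by the 75th percentile over all probes, most of them at the background. Normexp background correction with an offset of 50 lowered the log2 difference of miR-320-3p to 1.56, which was 1.48 above the median of all miRNAs under that correction.

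**Figure D3:**
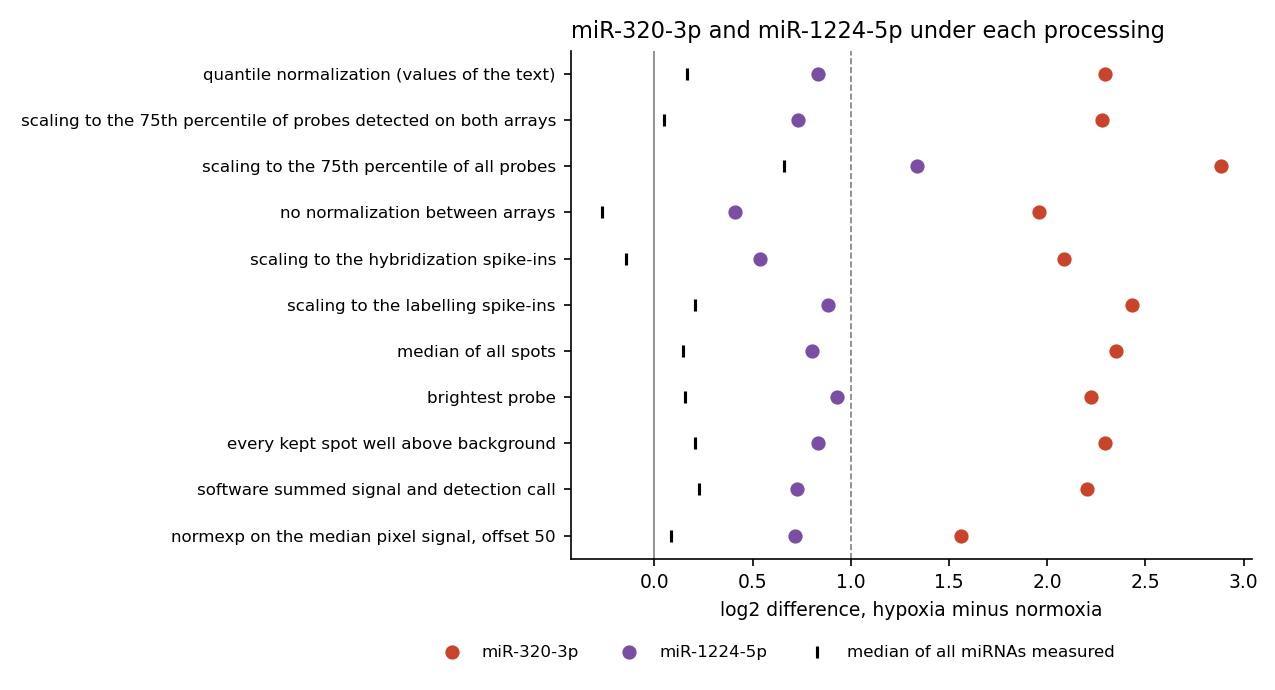
Log2 difference, hypoxia minus normoxia, of miR-320-3p and miR-1224-5p under each way of processing, beside the median of all miRNAs measured under it (black marks), with lines at 0 and at 2-fold. miR-320-3p stays above 2-fold in every row shown, miR-1224-5p passes it in 1 row, and neither falls below 0.

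Other miRNAs with unusual routes of biogenesis differed between the arrays in both directions. The list held 11 names on the array, from miR-1981, miR-1982 and miR-3102 (described as mirtrons or tailed mirtrons), miR-1839 (described as derived from a small nucleolar RNA) and miR-451a (cut by Ago2 in place of Dicer). Of the 11, 4 were detected in normoxia, 3 in hypoxia and 6 on neither array. That made 45.5% detected on at least 1 array, against 13.0% of all 1881 miRNAs. miR-1839-5p was 3.26-fold higher in hypoxia (log2 difference 1.71 ± 0.051, SE over spots) on 1 probe of 3, the one that both arrays detected, whose signal averaged 36.6 ± 2.07 in normoxia (SD, n = 10 spots) and 86.5 ± 7.48 in hypoxia (SD, n = 8 spots). miR-451a, a miRNA abundant in red blood cells, was lower in hypoxia by a log2 difference of -3.66 ± 0.057 on 1 probe of 2, again the one that both arrays detected. That probe had a signal of 448 ± 37.5 in normoxia (SD, n = 15 spots) and of 26.5 ± 3.14 in hypoxia (SD, n = 13 spots). The pattern of these miRNAs thus differed in sign from one to the next.

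The mirtrons of that list that were detected at all were each detected on 1 array, and both arms of miR-1981, miR-1982-3p and both 3p names of miR-3102 were detected on neither. miR-1982-5p had probe means of 89.3 and 98.2 in normoxia and of 10.1 and 6.62 in hypoxia, and after quantile normalization, as an average over both probes, it was at least 4.85-fold lower in hypoxia. The miR-3102 precursor is described as giving miRNAs from both an inner and an outer part of its long hairpin. miR-3102-5p was detected in normoxia only, with probe means of 18.6 and 16.6 against 3.25 and 6.28 in hypoxia, too close to the detection limit for a bound. miR-3102-5p.2-5p was detected in hypoxia only, with probe means of 25.1 and 55.4 against 11.0 and 15.5 in normoxia. On the same normalized average over both probes it was at least 3.63-fold higher in hypoxia, a bound on the average and not on either probe. Of the mirtrons named in this text, miR-1224-5p was the only 1 detected on both arrays.

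**Figure D4:**
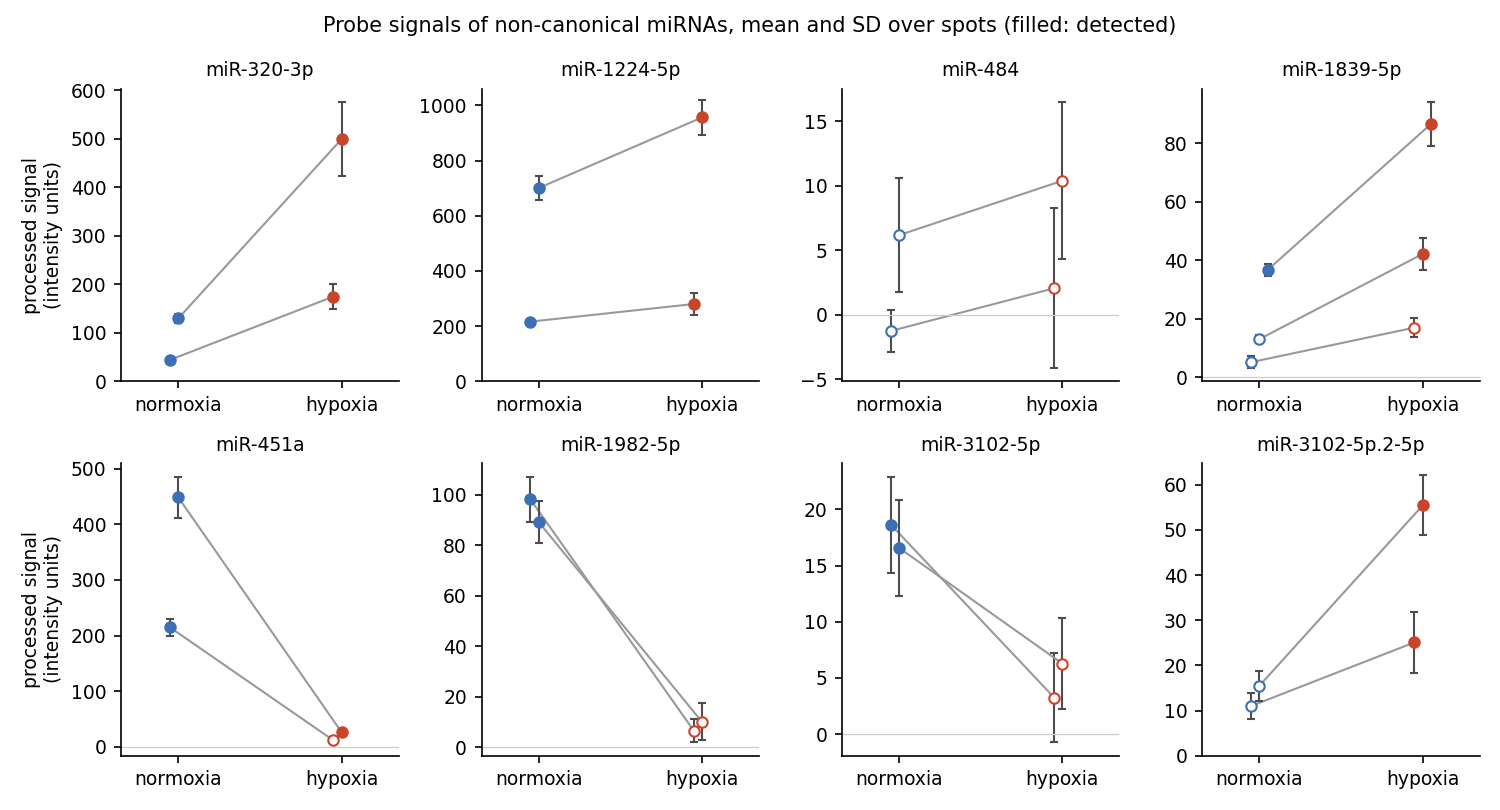
Processed signal (intensity units, a separate linear scale for each miRNA) of each probe in normoxia and hypoxia, as the mean with the SD over spots as bars, for miR-320-3p, miR-1224-5p, miR-484 and the other non-canonical miRNAs detected on at least 1 array. Filled points are detected and open points are not. Both probes of miR-320-3p are brighter in hypoxia, those of miR-484 stay at or under 10.4, and those of miR-451a and miR-1982-5p are lower in hypoxia.

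The numbered block from miR-6896 to miR-7094 holds many mouse names that were annotated from introns. In RefSeq, 167 of its 180 hairpins (92.8%) ended with AG and 21 (11.7%) also began with GU, as did the hairpins of miR-877 and miR-1224. Of all 1005 hairpins, 238 (23.7%) ended with AG, and the 30 that also began with GU include these 21. Of the block's 400 names on the array, 27 were detected in normoxia, 18 in hypoxia and 15 on both. Detection on at least 1 array covered 7.5% of the block, against 13.0% of all 1881 miRNAs. The median log2 difference of those 15 was 0.37, and 3 of them were higher and 4 lower in hypoxia by at least 2-fold. Of the block's names, 29 of the 201 on 5p arms (14.4%) and 1 of the 199 on 3p arms (0.503%) were detected on at least 1 array. Among all names outside the 6 members, the shares were 15.4% of 5p arms and 9.59% of 3p arms. The block's 5p share was thus near that of all names, and its 3p share was lower. The 178 miRNAs outside the 6 members that were measured on both arrays had a median log2 difference of 0.17. Of these, 32 were higher and 18 lower in hypoxia by at least 2-fold.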

How the data were processed

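The deposited values were intensities from 2 arrays of 1 colour, 1 per condition, grouped by their labels. The authors' image software, Feature Extraction 11.5.1.1 per the file headers, removed background from each spot, flagged outliers and called spots well above background. The deposited processed signal carried no normalization between arrays, and the deposited value table held the same intensity for each spot (largest difference 0). The software's other deposited flags are 0 or 1 and have no unit.

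Of the members' 180 spots per array, 16 in normoxia and 14 in hypoxia carried an outlier flag (4 kinds) and were not used. The other spots were averaged per probe, and the 4415 probe means were quantile-normalized. The study names quantile normalization without saying at which level it was applied. Log2 differences of the probes that both arrays detected were averaged for each miRNA. For a miRNA that 1 array detected, a bound was formed against the dim probe's own signal or, where higher, the other array's lowest detected signal (12.0 in normoxia and 16.1 in hypoxia after normalization). No test was run, since each condition has 1 array, and the number of arrays limits the precision. The summary was also run on simulated spots that had no outlier flags and the normoxia spot SD on both arrays. Unlike these, the real arrays held flagged spots, and replicate spots varied more in hypoxia. Normexp used limma 3.58.1 in R 4.3.3, and the other steps used Python. Named beyond the members are their opposite arms on the array, the 3 miRNAs nearest in log2 difference, and each detected miRNA of a list of other non-canonical ones. The members and lists were chosen with earlier results of these data known. Alternatives were other scalings, spot summaries, detection rules and background correction. The array design names mm9. Coordinates and sequences are RefSeq's on GRCm38.p6, so they were not matched to the array by position, and RefSeq names matched 1608 of the 1881 array names.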

Additional observations from a re-analysis of the deposited data

Results flagged for a closer look

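The software's summed signal was read outside the comparisons above. It called miR-484 detected on the hypoxia array, with a summed signal of 2.20 ± 0.703 (the software's own error), and not detected on the normoxia array, where it was set to 0.1. By the share of spots well above background, miR-484 was detected on neither array. The difference was not tested and has no replicate.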

How the results depend on the processing

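The log2 difference of miR-320-3p stayed within its SD over spots in 6 of 9 alternatives, as did that of miR-1224-5p, and neither changed sign in any of them. The value table and both other filters on dim probes could not move these values. Scaled by the 75th percentile over all probes, miR-320-3p reached 2.89, miR-1224-5p 1.34 and their median 2.11, so that 2 members were at least 2-fold higher, as were 32.2% of all 180 miRNAs, whose median was 0.66. Without normalization between arrays the values were 1.96, 0.41 and 1.18. Under scaling to the hybridization spike-ins, miR-1224-5p was at 0.54 and the median at 1.31. Normexp with an offset of 50, which adds a constant to every signal, gave 1.56 for miR-320-3p and 1.14 for the median. With no filter on dim probes the median was 0.43, because the undetected members then took the difference of the floors of the arrays, and no count of detected members can be given. The software's own call gave 3 members detected on at least 1 array, and 14.6% of all miRNAs against 13.0% by the share of spots. Scaling to the labelling spike-ins was chosen after seeing the data and gave 2.43 and 0.89. No paired analysis was possible because normoxia and hypoxia had a single array apiece, and for the same reason no replicate could be left out. Signal over background limits miR-484, both arms of miR-877 and miR-702-3p, for which no difference could be measured.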
